A study of Homo sapiens with 16 samples.

Results

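The lysosome and autophagy genes described here are 36 of the 63677 genes in the deposited count table. They were taken as the genes whose symbol in the gene-level FPKM table (read counts scaled for transcript length and sequencing depth) is on a list of MiT/TFE transcription factors, lysosomal enzymes, lysosomal membrane proteins, proton pump subunits and autophagy proteins, and their counts were joined by Ensembl identifier. The list was drawn up as one of TFEB-regulated genes. All 36 were found, and all 36 passed the filter on low counts in every comparison. RNA sequencing of poly-A RNA had been performed on 2 human pancreatic cancer cell lines, MiaPaCa2 (Mia-PaCa-2 in the labels) and PANC1 (PANC-1). Each line had 4 groups with 2 libraries each: a control, 40 nM gemcitabine, 50 µM genistein, and 40 nM gemcitabine together with 50 µM genistein, all at 24 hours. The control is titled Ctrl, with no drug or vehicle named. Gemcitabine is a nucleoside analogue that blocks DNA synthesis, and genistein is an isoflavone with oestrogenic activity. Both lines were grown in DMEM with serum, and each is a single established line, so a value here is that of 1 line and not of pancreatic tumours in general. The 2 libraries of a group were biological replicates by the methods of the study, and the labels do not name their cultures.

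Lysosomes are acidic organelles in which hydrolases break down proteins, lipids and sugar chains. The V-ATPase, a membrane proton pump, keeps their lumen acidic, and membrane proteins such as LAMP1 and LAMP2 line their inner face. Autophagy delivers cytoplasm to them: the ULK1 kinase starts the process, a lipid kinase complex with BECN1 nucleates a membrane, and ATG enzymes attach ATG8 proteins such as MAP1LC3B and GABARAPL1 to it, where receptors such as SQSTM1 bring in cargo. TFEB, TFE3 and MITF are related transcription factors that bind a short motif, the CLEAR element with the core TCACGTG, in the promoters of many of these genes when they enter the nucleus, and their activity is set largely by phosphorylation and location, which RNA sequencing does not measure. Pancreatic cancer cells are known for high use of this pathway.

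Counted reads ran from 12943482 to 31991860 per library. The epithelial markers KRT8, KRT18 and KRT19 were at 56.5 FPKM or more in every library of both lines. EPCAM and CDH1 were present in PANC1 (7.71 to 12.8 FPKM and 2.70 to 13.2 FPKM) but at 0 to 0.0213 FPKM in MiaPaCa2, and 10 markers of leukocyte, endothelial, acinar, islet and fibroblast cells summed to at most 0.0777 FPKM in any library. The libraries differed in how their counts depended on the GC content of a gene's exons. Slopes are of log2 counts per 10 percentage points of GC, with each gene set against its mean over the 8 libraries of the line. They were -0.23 and -0.14 in the MiaPaCa2 controls, 0.14 and 0.05 with gemcitabine, 0.00 and -0.16 with genistein and 0.05 and 0.29 with both drugs. The PANC1 controls differed from each other, at 0.29 and -0.07. Values with a correction for this trend are given below for the main changes it moved across the threshold. Levels below are FPKM as deposited, always with replicate 1 first. Changes are log2 fold changes ± SE from the counts by limma-voom, and a gene was called when its Benjamini-Hochberg adjusted p was at most 0.05, its log2 fold change at least 0.4 in size and its mean level above 1 FPKM in the treated group. FPKM and scaled counts did not share a zero: the median member stood 0.35 higher on the log2 scale in PANC1 with both drugs than in its controls by FPKM and 0.05 higher by counts scaled to depth (CPM), so a direction is taken from the counts.

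Promoter sequences were matched for 27 of the 36 members in the RefSeq set of GRCh38.p14 (250 bases before to 50 after each start). The motif TCACGTG, on either strand, was found in 7 of these 27 (25.9%), namely NEU1, GAA, CTSA, CTSD, LAMP1, MCOLN1 and ATP6V0D1, and in 3.71% of all 35116 promoters. The shorter CACGTG, which every TCACGTG contains, was found in the same 7 members and in 7.26% of all promoters. Members were counted by gene, with the motif in any promoter of the gene, and the background was counted by promoter. The list was drawn up as one of TFEB-regulated genes, and TFEB binds this motif. A share above that of all promoters was therefore built into the list and is no result. A match of letters is a description of the sequence and shows no binding. LAMP1 held 6 sites, GAA, MCOLN1 and CTSA 2 each, and NEU1, CTSD and ATP6V0D1 1 each. The 220 bases from 210 before to 10 after the start are shown for NEU1, which rose most with both drugs in each line, for GAA, MCOLN1 and LAMP1, which hold 2 or more sites and differed in their response, and for GLA, which changed in MiaPaCa2 and held none. The coordinates are chr6:31862812-31863031 (minus strand), chr17:80101371-80101590 (plus), chr19:7522414-7522633 (plus), chr13:113297029-113297248 (plus) and chrX:101407916-101408135 (minus). Capitals mark the motif on either strand.
NEU1: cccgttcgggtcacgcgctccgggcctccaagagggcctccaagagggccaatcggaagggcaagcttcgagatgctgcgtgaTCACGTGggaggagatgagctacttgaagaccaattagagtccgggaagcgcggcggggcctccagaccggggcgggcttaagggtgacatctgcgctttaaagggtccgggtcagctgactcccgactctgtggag
GAA: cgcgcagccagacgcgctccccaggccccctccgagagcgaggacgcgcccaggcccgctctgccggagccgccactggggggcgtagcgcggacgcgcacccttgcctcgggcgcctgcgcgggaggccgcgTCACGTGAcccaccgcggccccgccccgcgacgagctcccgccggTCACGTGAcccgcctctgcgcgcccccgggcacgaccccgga
MCOLN1: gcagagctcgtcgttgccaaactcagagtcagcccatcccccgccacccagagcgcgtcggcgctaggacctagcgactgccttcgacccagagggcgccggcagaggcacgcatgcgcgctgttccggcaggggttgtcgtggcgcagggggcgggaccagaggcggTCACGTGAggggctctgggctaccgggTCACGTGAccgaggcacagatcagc
LAMP1: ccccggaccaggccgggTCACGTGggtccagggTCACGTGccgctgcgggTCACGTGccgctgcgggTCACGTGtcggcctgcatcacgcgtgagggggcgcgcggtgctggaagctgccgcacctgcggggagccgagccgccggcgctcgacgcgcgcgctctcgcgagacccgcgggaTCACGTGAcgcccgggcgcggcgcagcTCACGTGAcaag
GLA: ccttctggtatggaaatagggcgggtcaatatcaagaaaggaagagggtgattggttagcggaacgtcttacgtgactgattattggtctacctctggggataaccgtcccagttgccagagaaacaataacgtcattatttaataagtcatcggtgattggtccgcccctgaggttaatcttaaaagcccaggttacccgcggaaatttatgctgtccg

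The untreated lines were compared first, as the base on which the drugs acted. Of the 36 members, 23 were called, 14 higher and 9 lower in PANC1, and 52.3% of all 17863 genes tested were called in this comparison (27.9% higher and 24.3% lower). GAA, which digests lysosomal glycogen, stood at 46.9 and 60.2 FPKM in the MiaPaCa2 controls and at 19.7 and 15.9 FPKM in the PANC1 controls (log2 difference -1.94 ± 0.23, adjusted p = 6.9e-06). ATP6V1B2, a V-ATPase subunit of the catalytic sector, was at 51.7 and 56.8 FPKM against 22.2 and 17.5 FPKM (-1.59 ± 0.11, adjusted p = 2.6e-08). In these 2 genes every MiaPaCa2 control lay above every PANC1 control. ULK1 went the other way, with 7.42 and 8.89 FPKM in MiaPaCa2 and 23.9 and 19.4 FPKM in PANC1 (1.59 ± 0.29, adjusted p = 2.8e-04). CTSD, an aspartyl protease, was at 280.1 and 338 FPKM against 806 and 680.5 FPKM (1.58 ± 0.28, adjusted p = 2.4e-04). Both were higher in each PANC1 control than in either MiaPaCa2 control. Of the exon bases of CTSD 27.3% overlap another gene on the same strand and 24% a gene on the opposite strand.

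By role, several groups held members on both sides of equality. TFEB (1.13 ± 0.24) and MITF (1.05 ± 0.23) were higher in PANC1, while TFE3 had a log2 difference of -0.35 ± 0.13 and was not called. The membrane proteins NPC1 and LAMP2 were higher (0.78 and 0.49), and the V-ATPase subunits ATP6V1B2 and ATP6V0D1 were lower (-1.59 and -1.18). Of the 5 cathepsins CTSL, CTSA and CTSZ were lower in PANC1 (-1.26, -0.67 and -0.77) and CTSD was higher. Among 5 glycosidases NEU1 and HEXA were higher (1.14 and 0.91) and GAA and GUSB lower (-1.94 and -0.45), and of the 2 lipid carriers PSAP was higher (1.23) and NPC2 lower (-0.80). The cargo receptor SQSTM1 was higher in PANC1 (0.97 ± 0.12), while the 3 ATG8 proteins were not called, with log2 differences of -0.21 to -0.04. ATG5, ATG7 and ATG9A, which serve ATG8 conjugation and membrane supply, were higher in PANC1 (0.62 to 0.81), and BECN1 was lower (-0.94 ± 0.09). The calls of LAMP2 and ATG5 were lost without PANC1 control 2, that of UVRAG without MiaPaCa2 control 2 and that of GUSB without either. With the GC correction 24 members were called, 11 higher and 13 lower, of which 20 were called in the same direction without it. Those gained were TFE3 (-0.84, adjusted p = 1.5e-08), MCOLN1 (-0.90, 1.5e-05), CTSB (-0.76, 2.6e-09) and GABARAPL1 (-0.51, 2.6e-04), all lower in PANC1. The correction moved the median difference from -0.05 to -0.25 over members and from 0.06 to -0.24 over all genes. Of all genes 10097 were called with it, against 9334 without. LAMP2 and UVRAG then had 0.34 and 0.28, and ATG9A had a log2 difference of 0.03 (adjusted p = 0.740), and 38.8% of its exon bases overlap another gene on the same strand.

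**Figure D1:**
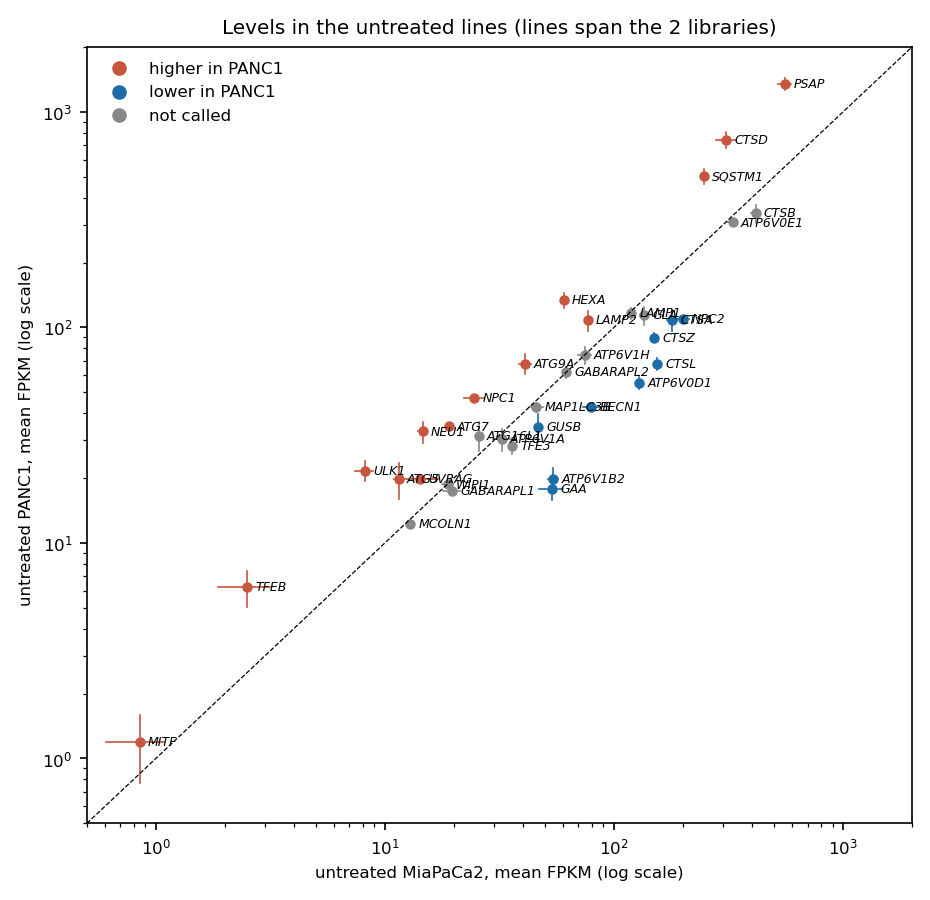
Mean level of each member in the untreated MiaPaCa2 (horizontal axis) and untreated PANC1 (vertical axis) controls, in FPKM on log scales, with lines that span the 2 libraries of each line and a dashed line of equality. The 14 members called higher in PANC1 are red, the 9 called lower are blue and the 13 not called are grey, and the levels run from MITF at the lower left to PSAP at the top.

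Each drug was then compared with the control of its line, and the 3 comparisons of a line share its 2 control libraries. In MiaPaCa2, gemcitabine raised 11 of 36 members and lowered none, against 29.6% of all 16064 genes called (15.0% higher, 14.6% lower). Genistein raised 5 and lowered none, against 8.31% of all genes (4.18% higher, 4.13% lower). Both drugs together raised 16 and lowered 1, against 40.5% of all genes (20.3% higher, 20.2% lower). The share of members called was 30.6%, 13.9% and 47.2%, and all calls among members but that of ATG5 were upward. The median log2 fold change of the members was 0.18, 0.16 and 0.35 for the 3 treatments, with -0.01, 0.00 and -0.01 over all genes tested. On the scale of normalised counts both treated libraries lay above both controls in 30 of 36 members with both drugs, and in 37.0% of all genes.

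PANC1 gave fewer calls. Gemcitabine raised NEU1 and GABARAPL1 and lowered ATG7, so that 3 of 36 members were called against 7.52% of all 16909 genes (4.49% higher, 3.03% lower). Genistein called no member by limma-voom or by edgeR and 3 by DESeq2, and 0.0591% of all genes (10 genes) were called by limma-voom, although 14 members had an unadjusted p below 0.05, 12 of them upward. Both drugs called 5 members, NEU1, GABARAPL1, GUSB and NPC1 upward and WIPI1 downward, against 17.1% of all genes (10.2% higher, 6.90% lower). Scaled by library size alone, which moved the median of all genes from 0.01 to 0.17, the last count became 11, all upward. That scaling moved the all-gene median to 0.14 with gemcitabine in PANC1 and to 0.09 with gemcitabine in MiaPaCa2, where 16 members were then called. The median log2 fold change of members was 0.06, 0.19 and 0.12, and over all genes 0.03, 0.05 and 0.01. Over the 6 comparisons of a treatment with its control, 20 members were called at least once and 16 never. The matching share of all genes was not counted, and both drugs in MiaPaCa2 alone called 40.5% of them. These 2 counts therefore say nothing particular to the members. Some counts depended on single libraries: with gemcitabine in MiaPaCa2 it was 7 without control 2, with genistein in MiaPaCa2 it was 2 without genistein 1, 1 without control 1 and 2 without control 2, and with gemcitabine in PANC1 it was 0 without either gemcitabine library and 5 without control 2.

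**Figure D2:**
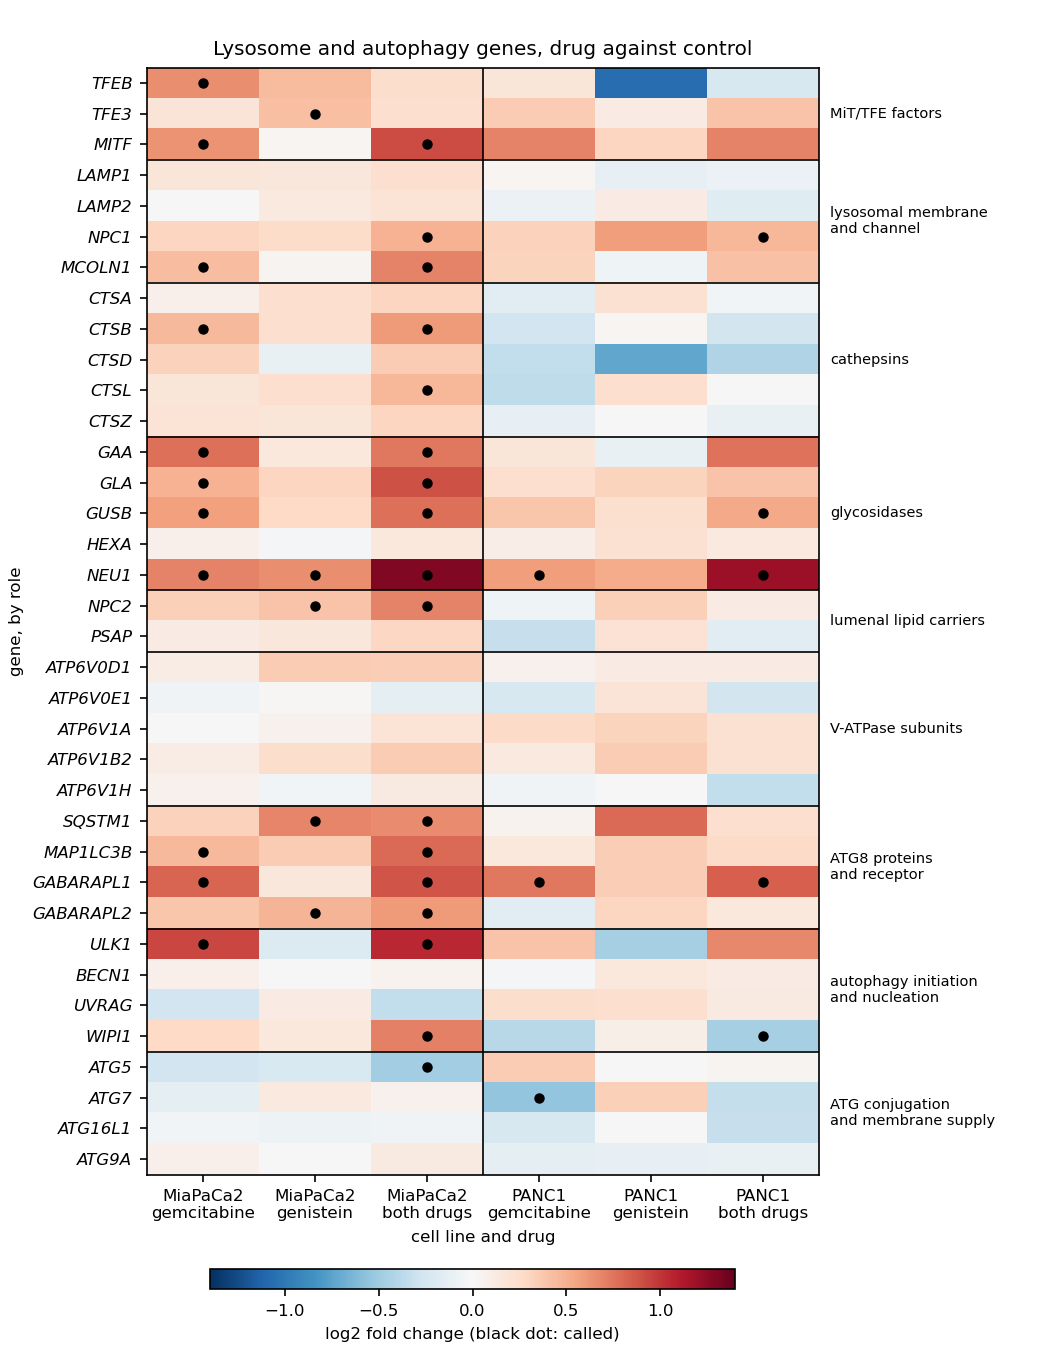
Log2 fold change of each of the 36 members (rows, grouped by role) for each drug against the control of its line (columns), from blue (lower) to red (higher), with a black dot where the member was called. The MiaPaCa2 columns hold 11, 5 and 17 dots and the PANC1 columns 3, 0 and 5, and NEU1 is the row with the most dots.

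The members called in both lines were few. With gemcitabine NEU1 and GABARAPL1 were called in both lines, 5.56% of the members, against 3.33% of the 15095 genes tested in both lines. The 2 members rose in each line, as did 1.64% of these genes. With both drugs 5 members (13.9%, against 9.94% of genes) were called in both lines. NPC1, GUSB, NEU1 and GABARAPL1 rose in both (11.1%, against 5.78% of genes), and WIPI1 rose in MiaPaCa2 and fell in PANC1. With genistein no member was called in both lines, against 0.0397% of genes.

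NEU1, the lysosomal sialidase that removes terminal sialic acid from glycoproteins and glycolipids, had the largest rise of any member with both drugs in each line (gene at chr6:31825436-31830682, GRCh37, minus strand). In MiaPaCa2 its level was 14.0 and 15.2 FPKM in controls, 27.5 and 23.5 FPKM with gemcitabine, 23.4 and 21.9 FPKM with genistein and 37.2 and 38.6 FPKM with both. In PANC1 the corresponding levels were 36.5 and 29.2, 52.5 and 51.8, 50.6 and 45.5, and 81.0 and 86.8 FPKM. In both lines the control libraries were lowest, the single drugs were in the middle and the combination was highest, with no overlap between controls and treated libraries. The log2 fold changes in MiaPaCa2 were 0.69 ± 0.11 with gemcitabine (adjusted p = 4.0e-04), 0.65 ± 0.11 with genistein (adjusted p = 0.00400) and 1.30 ± 0.10 with both (adjusted p = 1.2e-06). Those in PANC1 were 0.58 ± 0.13 (adjusted p = 0.0357), 0.52 ± 0.14 (adjusted p = 0.133, not called) and 1.20 ± 0.13 (adjusted p = 0.00126). The GC-corrected PANC1 genistein value was 0.43 and passed (adjusted p = 0.0213). The rise with both drugs passed in all 11 alternative settings in each line, from 1.03 to 1.37 in MiaPaCa2 and from 1.07 to 1.36 in PANC1. In PANC1 the call with gemcitabine was lost without gemcitabine 1 (adjusted p = 0.189), gemcitabine 2 (0.218) or control 2 (0.0883), and in MiaPaCa2 the call with genistein was lost without control 1 (0.0831).

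Of the other 4 glycosidases GLA, GUSB and GAA rose in MiaPaCa2 and HEXA was not called. GLA, the alpha-galactosidase A deficient in Fabry disease (chrX:100648261-100663000), was at 139 and 130.3 FPKM in MiaPaCa2 controls, 179 and 193 FPKM with gemcitabine, 159 and 154 FPKM with genistein and 239.8 and 236 FPKM with both. These groups did not overlap, and the log2 fold change was 0.49 ± 0.09 with gemcitabine (adjusted p = 8.6e-04) and 0.89 ± 0.08 with both drugs (adjusted p = 3.8e-06). In PANC1 GLA was at 124 and 102.8 FPKM in controls and at 168 and 161 FPKM with both drugs, and its log2 fold change of 0.40 ± 0.10 (adjusted p = 0.0291) fell just short of the fold required. GUSB, the beta-glucuronidase (chr7:65425671-65447202), was at 47.0 and 46.1 FPKM in MiaPaCa2 controls, 73.7 and 70.4 FPKM with gemcitabine, 53.7 and 50.9 FPKM with genistein and 84.7 and 83.8 FPKM with both. It rose with gemcitabine (0.57 ± 0.09, adjusted p = 3.7e-04) and with both drugs (0.77 ± 0.09, adjusted p = 1.7e-05). In PANC1 GUSB was at 39.7 and 29.5, 48.3 and 41.4, 44.9 and 33.9, and 48.4 and 58.2 FPKM in the same order, and rose with both drugs (0.53 ± 0.11, adjusted p = 0.0152), a call lost without both-drug library 2 (adjusted p = 0.0719) or control 2 (0.0692).

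GAA (chr17:78075332-78093680) was the most variable glycosidase between replicates. Its level in MiaPaCa2 was 46.9 and 60.2 FPKM in controls, 110.2 and 82.3 FPKM with gemcitabine, 62.3 and 54.6 FPKM with genistein and 78.3 and 105.8 FPKM with both. It rose with gemcitabine (0.77 ± 0.14, adjusted p = 0.00128) and with both drugs (0.74 ± 0.14, adjusted p = 9.0e-04). With the GC correction these became 0.27 and 0.24, below the fold required, and 64% of its exon bases are G or C. The gemcitabine value of GUSB also fell below that fold with the correction, to 0.33. HEXA, the alpha chain of beta-hexosaminidase, was at 59.7 and 61.1 FPKM in MiaPaCa2 controls and at 75.8 and 78.6 FPKM with both drugs, and its log2 fold change of 0.15 ± 0.09 by counts was not called.

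**Figure D3:**
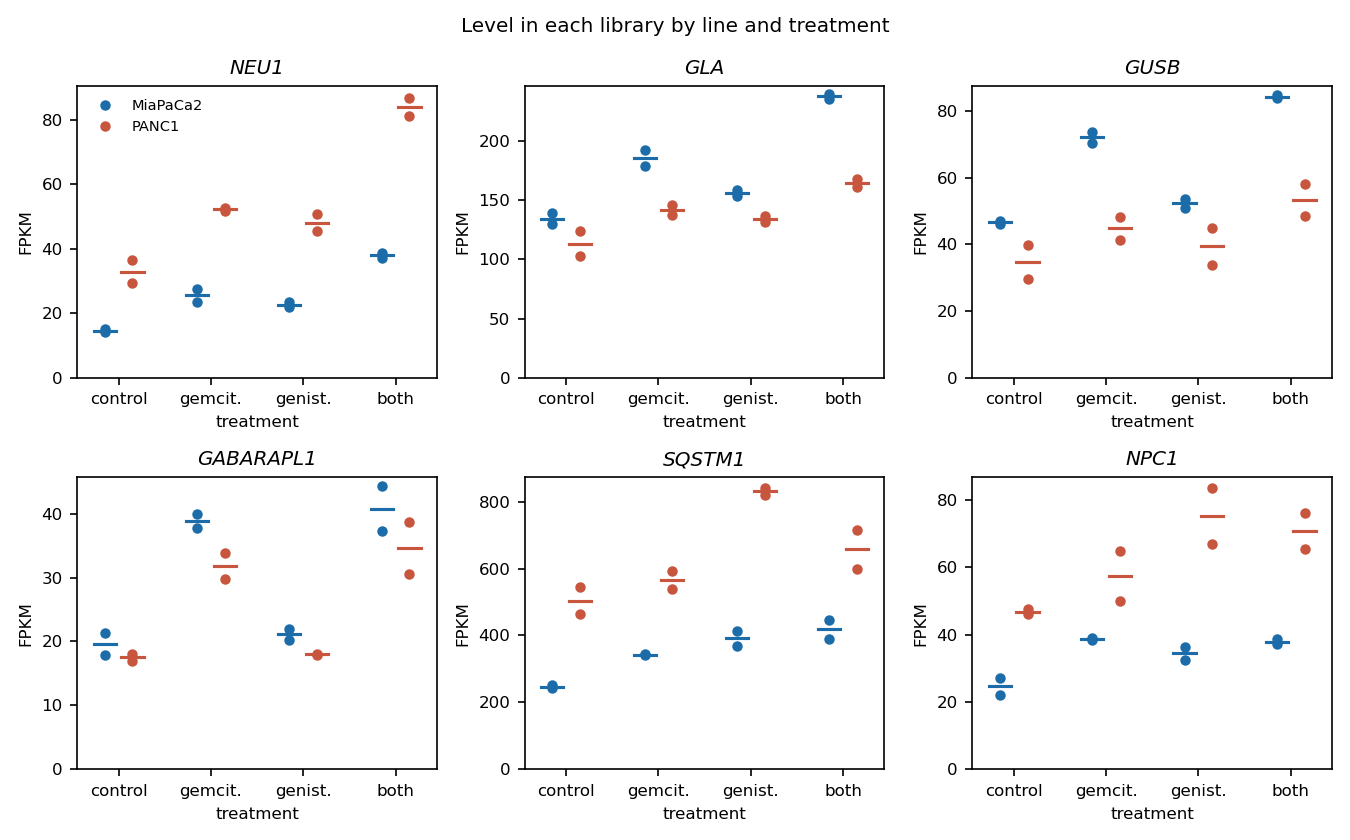
FPKM of NEU1, GLA, GUSB, GABARAPL1, SQSTM1 and NPC1 in every library, by treatment, with MiaPaCa2 in blue and PANC1 in red, a point for each of the 2 libraries and a bar at their mean. NEU1 climbs from control through either single drug to both drugs in each line, GABARAPL1 is high with gemcitabine alone or in combination, and SQSTM1 in PANC1 is highest with genistein alone.

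All 3 ATG8 proteins and the receptor SQSTM1 rose with both drugs in MiaPaCa2. GABARAPL1, an ATG8 protein that marks autophagosomes and binds cargo receptors (chr12:10365057-10375727), was at 17.9 and 21.3 FPKM in MiaPaCa2 controls, 39.9 and 37.8 FPKM with gemcitabine, 20.2 and 22.0 FPKM with genistein and 37.3 and 44.3 FPKM with both. The PANC1 levels were 18.1 and 16.9, 29.8 and 33.9, 17.8 and 18.1, and 30.5 and 38.7 FPKM. In both lines every library with gemcitabine lay above every library without it. The log2 fold change with gemcitabine was 0.81 ± 0.11 in MiaPaCa2 (adjusted p = 1.7e-04) and 0.74 ± 0.12 in PANC1 (adjusted p = 0.0140), and with both drugs it was 0.88 ± 0.11 (adjusted p = 3.8e-05) and 0.84 ± 0.12 (adjusted p = 0.00390). With genistein alone it was 0.16 ± 0.12 (adjusted p = 0.417) and 0.34 ± 0.13 (adjusted p = 0.219). The PANC1 call with gemcitabine was lost without gemcitabine 1 (adjusted p = 0.106) or gemcitabine 2 (0.147).

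SQSTM1, which carries ubiquitinated cargo to autophagosomes and is itself degraded with it (chr5:179233398-179265078), was at 242 and 252 FPKM in MiaPaCa2 controls, 345 and 341 FPKM with gemcitabine, 413 and 369 FPKM with genistein and 389.9 and 446 FPKM with both. PANC1 had 545 and 463, 592 and 538, 843 and 822, and 598 and 717 FPKM. The genistein libraries of PANC1 were thus above all its others. SQSTM1 had the largest called change with genistein in MiaPaCa2 (0.68 ± 0.08, adjusted p = 9.5e-04) and passed there in all 11 alternative settings. In PANC1 the change with genistein was of similar size (0.79 ± 0.11) but missed the threshold (adjusted p = 0.0624), and it passed with DESeq2, library size alone, no low-count filter, the 4 libraries alone and the GC correction (0.96, adjusted p = 1.7e-04). The difference between the lines was 0.06 ± 0.17 (adjusted p = 0.899). With both drugs SQSTM1 rose in MiaPaCa2 (0.66 ± 0.08), a value that fell to 0.30 with the GC correction, and had 0.24 ± 0.11 (adjusted p = 0.157) in PANC1. Of its exon bases 22.4% overlap a gene on the opposite strand, and the strand setting of the counting is not given in the sources used here.

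MAP1LC3B, the ATG8 protein known as LC3B, was at 48.9 and 42.4 FPKM in MiaPaCa2 controls and 81.4 and 76.7 FPKM with both drugs (0.79 ± 0.09, adjusted p = 2.1e-05). GABARAPL2 was at 63.5 and 60.1 FPKM in MiaPaCa2 controls, 84.2 and 97.3 FPKM with gemcitabine, 90.0 and 90.2 FPKM with genistein and 105.3 and 97.5 FPKM with both. All of its treated libraries lay above the controls, and it rose with genistein (0.48 ± 0.10, adjusted p = 0.0130) and with both drugs (0.60 ± 0.10, adjusted p = 3.5e-04). The genistein call was lost without genistein 1 (adjusted p = 0.0765), control 1 (0.0954) or control 2 (0.121). MAP1LC3B also rose with gemcitabine in MiaPaCa2 (0.45 ± 0.09), a call lost with the GC correction (0.26) and without gemcitabine 2 or control 2 (0.37 each). Neither gene was called in PANC1, where their log2 fold changes with both drugs were 0.27 ± 0.12 and 0.15 ± 0.11. MAP1LC3B and GABARAPL1 have near-identical copies in the genome, so reads could be split or dropped between copies.

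Of the transcription factors, TFEB and MITF rose in MiaPaCa2 with gemcitabine, MITF also with both drugs, and TFE3 with genistein, and each of these 4 calls was lost without at least 1 library. TFEB (chr6:41651716-41703997) was at 3.14 and 1.87 FPKM in MiaPaCa2 controls, 5.56 and 5.89 FPKM with gemcitabine, 4.44 and 3.79 FPKM with genistein and 2.38 and 4.10 FPKM with both, from 57 to 122 counts per library. The levels in PANC1 were 7.44 and 5.05, 7.25 and 7.91, 3.73 and 3.76, and 9.13 and 11.5 FPKM. Gemcitabine raised it in MiaPaCa2 (0.65 ± 0.20, adjusted p = 0.0213), while with both drugs the libraries overlapped the controls (0.25 ± 0.21, adjusted p = 0.339). The call with gemcitabine was lost without any 1 of its 4 libraries (adjusted p from 0.0623 to 0.116) and with the GC correction (0.28, adjusted p = 0.139). With genistein TFEB had a log2 fold change of -1.07 ± 0.26 in PANC1 (adjusted p = 0.121) and of 0.44 ± 0.20 in MiaPaCa2 (adjusted p = 0.181), and the difference between the lines of -1.56 ± 0.36 had an adjusted p of 0.165. The PANC1 genistein value was -0.75 with the GC correction (adjusted p = 0.0397) and passed. With both drugs in PANC1 its FPKM was above the controls but its change by counts was -0.22 ± 0.23, so no direction is given.

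TFE3 (chrX:48886237-48900936) was the most abundant of the 3 factors. Its levels in MiaPaCa2 were 36.5 and 35.4 FPKM in controls, 45.2 and 42.8 FPKM with gemcitabine, 48.1 and 44.9 FPKM with genistein and 42.5 and 44.2 FPKM with both, and in PANC1 30.8 and 25.8, 40.0 and 37.2, 30.7 and 30.2, and 38.6 and 45.1 FPKM. The treated libraries of MiaPaCa2 all lay above its controls, and genistein was the treatment with a call (0.42 ± 0.08, adjusted p = 0.00914), which fell to 0.36 with the GC correction and was lost without genistein 1 (adjusted p = 0.0784), control 1 (0.0954) or control 2 (0.0912). MITF (chr3:69788607-70017487) was at 1.09 and 0.606 FPKM in MiaPaCa2 controls, 1.97 and 1.39 FPKM with gemcitabine, 0.420 and 0.571 FPKM with genistein and 1.03 and 1.54 FPKM with both. In PANC1 it was at 0.770 and 1.60, 2.54 and 1.90, 1.68 and 1.28, and 2.86 and 1.87 FPKM. MITF rose in MiaPaCa2 with gemcitabine (0.63 ± 0.23, adjusted p = 0.0439) and with both drugs (0.91 ± 0.22, adjusted p = 0.00448), at counts of 30 to 68 per library, and the former call was lost without any 1 of its 4 libraries (adjusted p from 0.0721 to 0.248) and the latter without control 1 (0.0567). In PANC1 the values were 0.69 ± 0.23 for each (adjusted p = 0.103 and 0.0718). Of 18 MITF transcripts in the isoform table, 1 exceeded 1 FPKM in any library, with 1.35 FPKM at most.

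Of the 5 cathepsins, CTSB and CTSL rose in MiaPaCa2. CTSB, a cysteine protease that is abundant in many carcinomas, was at 395 and 436 FPKM in MiaPaCa2 controls, 698 and 596 FPKM with gemcitabine, 511 and 483 FPKM with genistein and 704 and 804 FPKM with both. PANC1 gave 371 and 306, 309.9 and 276, 347 and 273, and 329 and 352 FPKM. In MiaPaCa2 all treated libraries lay above the controls, and in PANC1 the groups overlapped. CTSB rose with gemcitabine (0.45 ± 0.07, adjusted p = 5.0e-04) and with both drugs (0.60 ± 0.07, adjusted p = 2.7e-05) in MiaPaCa2, and with the GC correction these became 0.22 and 0.28, still with adjusted p of 0.00422 and 5.3e-04 but below the fold required. CTSL, another cysteine protease, was at 157 and 150.2 FPKM in MiaPaCa2 controls and 232 and 217 FPKM with both drugs (0.47 ± 0.08, adjusted p = 3.4e-04, and 0.37 with the GC correction). CTSA, CTSD and CTSZ were not called for any drug against control in either line. CTSD had log2 fold changes of -0.73 ± 0.29 with genistein and -0.42 ± 0.28 with both drugs in PANC1 (adjusted p = 0.233 and 0.335), with 63.9% GC and large spread between replicates.

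Among the lysosomal membrane proteins, NPC1 and MCOLN1 were called and LAMP1 and LAMP2 were not. NPC1, which exports cholesterol from lysosomes (chr18:21086148-21166470), was at 27.2 and 22.1 FPKM in MiaPaCa2 controls, 38.3 and 39.1 FPKM with gemcitabine, 36.4 and 32.5 FPKM with genistein and 38.6 and 37.2 FPKM with both. In the PANC1 libraries it was at 46.2 and 47.5, 49.9 and 64.9, 83.7 and 67.1, and 76.3 and 65.5 FPKM. All treated libraries lay above the controls of their line. With both drugs NPC1 rose in MiaPaCa2 (0.49 ± 0.09, adjusted p = 5.7e-04) and in PANC1 (0.46 ± 0.08, adjusted p = 0.00737), and with the GC correction these became 0.36 and 0.33. With genistein in PANC1 its change of 0.58 ± 0.08 had an adjusted p of 0.0641, and with the GC correction 0.43 passed (adjusted p = 0.00648). MCOLN1, the lysosomal calcium channel TRPML1, was at 13.0 and 12.8 FPKM in MiaPaCa2 controls, 21.5 and 17.7 FPKM with gemcitabine, 14.8 and 11.8 FPKM with genistein and 23.8 and 21.4 FPKM with both. It rose with gemcitabine (0.43 ± 0.12, adjusted p = 0.0127) and with both drugs (0.69 ± 0.12, adjusted p = 3.6e-04), and with the GC correction these became 0.09 (adjusted p = 0.480) and 0.30 (0.0189). The gemcitabine call was also lost without gemcitabine 1 (adjusted p = 0.0861), control 1 (0.0837) or control 2 (0.0812).

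LAMP1, which holds 6 of the motif in its promoter, had log2 fold changes of 0.17, 0.16 and 0.23 in MiaPaCa2 and of 0.03, -0.12 and -0.08 in PANC1, none of them called. LAMP2 had 0.01 ± 0.09, 0.14 ± 0.09 and 0.19 ± 0.09 in MiaPaCa2. Its exons have the lowest GC content of all members (36%), and with the GC correction the MiaPaCa2 values were 0.44, 0.54 and 0.86 and passed. The isoform table gave its transcripts LAMP2A, the receptor of chaperone-mediated autophagy, and LAMP2B apart. The ratio of LAMP2A to LAMP2B FPKM in MiaPaCa2 was 1.63 and 1.52 in controls, 2.81 and 2.92 with gemcitabine, 2.06 and 2.01 with genistein and 2.66 and 3.49 with both. In PANC1 it was 2.14 and 1.55, 1.84 and 1.74, 1.92 and 1.84, and 2.13 and 3.04. The ratio was above both controls in all 6 treated MiaPaCa2 libraries, and in PANC1 the treated libraries overlapped the controls in every group. These ratios are estimates from short single reads and were not tested.

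Of the lumenal lipid carriers, NPC2, which hands cholesterol to NPC1, was at 212 and 188 FPKM in MiaPaCa2 controls, 246 and 269.7 FPKM with gemcitabine, 266 and 242 FPKM with genistein and 326 and 338 FPKM with both. It rose with genistein (0.40 ± 0.11, adjusted p = 0.0354) and with both drugs (0.69 ± 0.11, adjusted p = 2.2e-04), but the genistein value stood at the fold required and was not called without any 1 of its 4 libraries (adjusted p from 0.0651 to 0.257), and was 0.34 with the GC correction. PSAP, the precursor of the saposins that help hydrolases reach lipids, was the most abundant member of PANC1 and was not called with any drug, with log2 fold changes of 0.12 to 0.29 in MiaPaCa2 and -0.32 to 0.20 in PANC1. None of the 5 V-ATPase subunits, ATP6V0D1, ATP6V0E1, ATP6V1A, ATP6V1B2 and ATP6V1H, was called for a drug against control in either line. Their log2 fold changes ran from -0.13 to 0.35 in MiaPaCa2 and from -0.34 to 0.36 in PANC1. ATP6V1B2 and ATP6V0D1 with both drugs in MiaPaCa2 had adjusted p of 0.00587 and 0.00633 at 0.35 ± 0.09 and 0.34 ± 0.09, below the fold required. After GC correction ATP6V1B2 (0.63, adjusted p = 6.2e-05) and ATP6V1A (0.43, adjusted p = 1.6e-04) were called higher there, and ATP6V1H was called lower with both drugs in PANC1 (-0.45, adjusted p = 0.00593).

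ULK1, the kinase that starts autophagy (chr12:132379167-132407695), was at 7.42 and 8.89 FPKM in MiaPaCa2 controls, 20.0 and 11.7 FPKM with gemcitabine, 11.7 and 4.98 FPKM with genistein and 18.8 and 22.6 FPKM with both. In PANC1 it was at 23.9 and 19.4, 40.8 and 27.2, 18.4 and 13.5, and 38.7 and 54.0 FPKM. The libraries with gemcitabine lay above the controls in both lines, while the genistein libraries lay on both sides of the controls in MiaPaCa2 and below them in PANC1. ULK1 rose in MiaPaCa2 with gemcitabine (0.93 ± 0.17, adjusted p = 0.00136) and with both drugs (1.05 ± 0.17, adjusted p = 2.9e-04), and with the GC correction these were 0.45 and 0.56. In PANC1 its changes were 0.40 ± 0.25 (adjusted p = 0.363) and 0.67 ± 0.25 (adjusted p = 0.0986), and with the GC correction 0.49 (adjusted p = 0.00163) and 0.75 (9.3e-05), both of which passed. BECN1 and UVRAG, subunits of the lipid kinase complex, were not called for any drug against control.

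WIPI1, which reads the lipid that this kinase complex makes (chr17:66417089-66453654), moved apart in the lines. It was at 17.7 and 19.9 FPKM in MiaPaCa2 controls, 21.7 and 21.1 FPKM with gemcitabine, 14.6 and 24.6 FPKM with genistein and 30.0 and 30.7 FPKM with both. In PANC1 it was at 19.3 and 18.1, 14.0 and 15.8, 24.4 and 21.7, and 14.0 and 15.9 FPKM. With both drugs it rose in MiaPaCa2 (0.71 ± 0.12, adjusted p = 4.2e-04) and fell in PANC1 (-0.46 ± 0.13, adjusted p = 0.0482), the PANC1 call being lost without any 1 of its 4 libraries (adjusted p from 0.0509 to 0.145). Of its exon bases 28.1% overlap a gene on the opposite strand. Of the conjugation and membrane supply genes, ATG7, the enzyme that activates ATG8 proteins, was at 36.1 and 33.3 FPKM in PANC1 controls and 26.0 and 29.5 FPKM with gemcitabine (-0.55 ± 0.11, adjusted p = 0.0280). That call was lost without gemcitabine 1 (adjusted p = 0.156), gemcitabine 2 (0.236) or control 1 (0.0705). ATG5 fell in MiaPaCa2 with both drugs (-0.49 ± 0.17, adjusted p = 0.0254), from 11.0 and 11.9 to 9.75 and 7.82 FPKM, and had -0.18 (adjusted p = 0.193) with the GC correction, -0.27 (0.209) without both-drug library 2 and -0.40 (0.174) without control 1. ATG16L1 and ATG9A were not called for any drug against control, but with the GC correction ATG16L1 (-0.45, adjusted p = 0.00542) and ATG7 (-0.47, adjusted p = 0.00292) were called lower with both drugs in PANC1. In bulk RNA a lower level of such a gene cannot be told apart from fewer cells that hold it.

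The effect of adding one drug to the other was tested next. Genistein added to gemcitabine raised 3 members in MiaPaCa2, against 5.88% of all genes called (4.05% higher, 1.83% lower). These were NEU1 (0.61 ± 0.10, adjusted p = 0.00363), WIPI1 (0.43 ± 0.12, adjusted p = 0.0469) and GLA (0.40 ± 0.08, adjusted p = 0.0113). The count was 5 without both-drug library 1, 1 without gemcitabine 1 and 0 without gemcitabine 2. With the GC correction WIPI1 and GLA had 0.36 and 0.39, below the fold required, while LAMP2 (0.42, adjusted p = 0.00595) was called higher and TFEB (-0.45, adjusted p = 0.0442) lower. No member was called in PANC1 by limma-voom or edgeR and 1 by DESeq2 (0.0177% of all genes by limma-voom, 0.0118% higher and 0.00591% lower), with 5 members at an unadjusted p below 0.05. NEU1 had 0.62 ± 0.12 there (adjusted p = 0.121), and with the GC correction 0.52 (adjusted p = 0.0100), which passed.

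Gemcitabine added to genistein raised 11 members and lowered UVRAG in MiaPaCa2, against 31.5% of all genes. The changes of ULK1 (1.24 ± 0.18, adjusted p = 1.6e-04), MITF (0.88 ± 0.22, adjusted p = 0.00607), GABARAPL1 (0.72 ± 0.11, adjusted p = 2.4e-04) and MCOLN1 (0.66 ± 0.12, adjusted p = 7.5e-04) led them. With the GC correction MCOLN1, GUSB, MAP1LC3B and GAA had 0.29, 0.24, 0.24 and 0.06 and were not called, while TFEB (-0.59, adjusted p = 0.00442) and TFE3 (-0.48, adjusted p = 5.3e-05) were called lower, so that 6 members were higher and 3 lower. CTSD had 0.45 ± 0.15 (adjusted p = 0.0296) there and -0.08 (adjusted p = 0.319) with the GC correction, so its direction turned. The MITF call was lost without genistein 2 (adjusted p = 0.0711). In PANC1 5 members were called, against 8.18% of all genes (3.87% higher, 4.31% lower). ULK1 (1.14 ± 0.29, adjusted p = 0.0479) and NEU1 (0.68 ± 0.13, adjusted p = 0.0238) rose, and ATG7 (-0.66 ± 0.12, adjusted p = 0.0190), SQSTM1 (-0.55 ± 0.11, adjusted p = 0.0241) and ATP6V0E1 (-0.43 ± 0.09, adjusted p = 0.0322) fell. This count was 0 without genistein 1, 0 without genistein 2, 3 without both-drug library 1 and 1 without both-drug library 2, and scaled by library size alone it was 8, with 6 higher and 2 lower and the all-gene median at 0.15. SQSTM1 thus stood lower in PANC1 with both drugs than with genistein alone, and in MiaPaCa2 the same comparison gave -0.03 ± 0.08 (adjusted p = 0.829).

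No member had a gemcitabine by genistein interaction, a departure from the sum of the single log2 changes, by limma-voom, edgeR or DESeq2 in either line. The interaction was called in 0.0249% of all genes in MiaPaCa2 (0.00623% above and 0.0187% below additive) and 0.00% in PANC1, and 3 and 2 members had an unadjusted p below 0.05. For NEU1 the interaction was -0.04 ± 0.15 in MiaPaCa2 and 0.10 ± 0.19 in PANC1. A missed threshold does not show that the drugs act additively. The member furthest from additive in MiaPaCa2 was TFEB (-0.84 ± 0.28, adjusted p = 0.445). In PANC1 SQSTM1 had -0.61 ± 0.15 (adjusted p = 0.734), and with the GC correction -0.85 (adjusted p = 0.0141).

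The response of the lines was compared by the difference of their log2 fold changes, PANC1 minus MiaPaCa2, judged by the adjusted p alone. With gemcitabine 5 members differed, all with the lower value in PANC1, against 15.3% of all genes (9.06% lower and 6.21% higher). After GC correction 9 differed, 6 lower and 3 higher in PANC1, the latter being TFE3 (0.50), UVRAG (0.46) and ATP6V0D1 (0.25). Over all genes 4645 differed with the correction, against 2728 without it. With both drugs 11 differed, again all lower in PANC1, against 18.1% of all genes (10.7% lower and 7.38% higher). With the GC correction 14 differed, 12 lower and 2 higher, the latter being GAA (0.55) and TFE3 (0.49). The all-gene number was then 5332, against 3239 without the correction. With genistein none differed by limma-voom or edgeR and 1 by DESeq2, against 0.0336% of all genes (0.00560% higher), and 3 members had an unadjusted p below 0.05. WIPI1 differed most with both drugs (-1.25 ± 0.18, adjusted p = 5.0e-04), followed by CTSB (-0.94 ± 0.14, adjusted p = 6.0e-04), NPC2 (-0.66 ± 0.16, adjusted p = 0.0144) and MAP1LC3B (-0.60 ± 0.15, adjusted p = 0.0138). With gemcitabine CTSB (-0.82 ± 0.14, adjusted p = 0.00258), WIPI1 (-0.77 ± 0.18, adjusted p = 0.0135), GABARAPL2 (-0.65 ± 0.13, adjusted p = 0.00800) and CTSL (-0.63 ± 0.11, adjusted p = 0.00310) led. CTSA, CTSB, CTSL and CTSZ of the cathepsins and both lipid carriers were among the 11, while NEU1 (-0.18 ± 0.19), GABARAPL1 (-0.12 ± 0.15) and NPC1 (-0.12 ± 0.11) did not pass. The median difference with both drugs was -0.37 over members and -0.05 over all genes. With gemcitabine the median was -0.28 over members and -0.08 over all genes. Without PANC1 control 2 the medians were -0.43 and -0.16 with gemcitabine and -0.53 and -0.12 with both drugs. With gemcitabine the count was 3 without MiaPaCa2 gemcitabine 2, MiaPaCa2 control 2 or PANC1 gemcitabine 2, and with both drugs it was 5 without MiaPaCa2 both-drug library 2, either MiaPaCa2 control or PANC1 both-drug library 1. Scaled by library size alone, which moved the all-gene median of the difference to 0.11, 6 members differed with both drugs. With genistein, TFEB (-1.21, adjusted p = 0.0187) and SQSTM1 (0.31, adjusted p = 0.0374) differed with the GC correction.

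**Figure D4:**
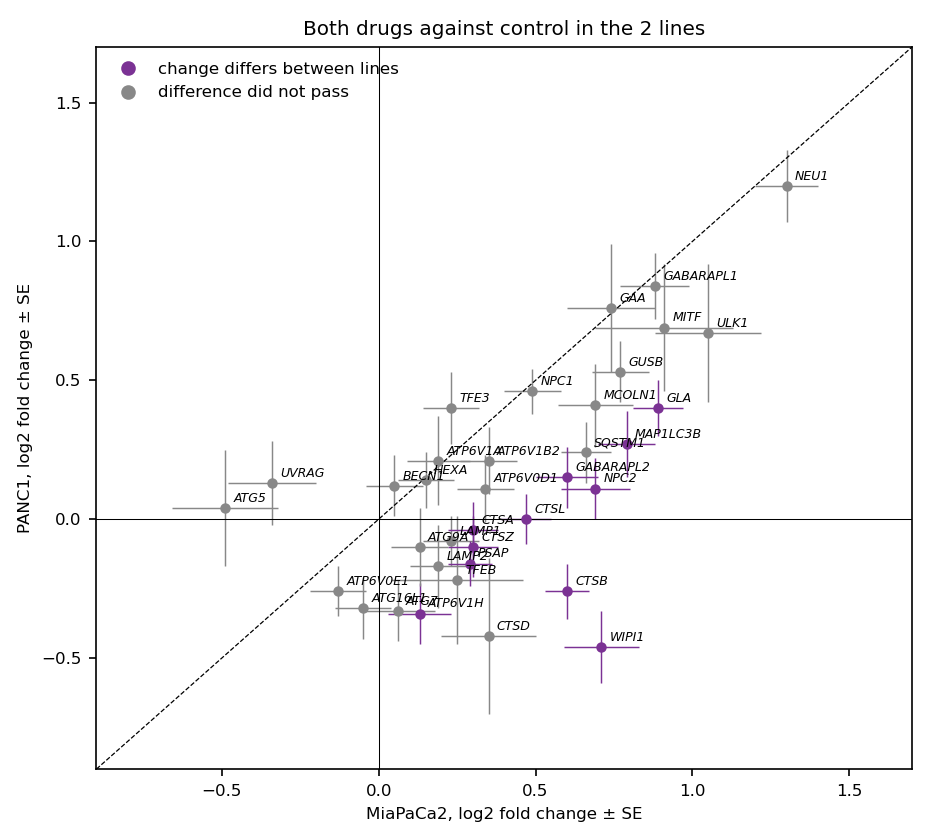
Log2 fold change with both drugs in MiaPaCa2 (horizontal axis) and in PANC1 (vertical axis) for each of the 36 members, with bars of 1 SE and a dashed line of equal change. The 11 members whose change differed between the lines are purple and lie below the line of equal change, with WIPI1 and CTSB furthest from it, and NEU1 lies at the top right close to the line.

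A wider list of other lysosome and autophagy genes was counted in the same fits. In MiaPaCa2 gemcitabine called 24 of them (22.6% of those tested, 19 higher and 5 lower), genistein 10 (9.43%, 8 and 2) and both drugs 44 (41.5%, 35 and 9). In PANC1 gemcitabine called 8 (7.27%, 6 and 2), genistein 0 and both drugs 18 (16.4%, 15 and 3). The background shares are those given above for each treatment. With both drugs the other lysosomal hydrolases gave 13 higher and 1 lower of 22 in MiaPaCa2 and 2 higher and 1 lower of 22 in PANC1. The other V-ATPase subunits gave 5 higher of 12 in MiaPaCa2 and none of 12 in PANC1.

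Some of these genes, such as LAMP3 with both drugs in each line, moved more than any member, and others named here moved less. LAMP3, a lysosomal membrane protein of low level, was at 0.0663 to 0.0742 FPKM in MiaPaCa2 controls (4 counts in each) and 1.12 to 1.33 FPKM with both drugs (log2 fold change 3.51 ± 0.47, adjusted p = 5.4e-05), and in PANC1 at 1.08 to 1.11 and 4.36 to 4.76 FPKM (1.80 ± 0.21, adjusted p = 0.00180). MAP1LC3A, another ATG8 protein, rose with both drugs in MiaPaCa2 (1.79 ± 0.17) and PANC1 (1.21 ± 0.25) and with gemcitabine in MiaPaCa2 (1.45 ± 0.17). With gemcitabine in MiaPaCa2 the acid sphingomyelinase SMPD1 rose as well (1.10 ± 0.14). With genistein in MiaPaCa2 GM2A, the activator protein of ganglioside breakdown, rose (0.54 ± 0.09). With gemcitabine in PANC1 LAMP3 (0.94 ± 0.22) and FLCN (0.90 ± 0.12), a regulator of TFEB and TFE3, rose most, and with both drugs LAMP3 and MAP1LC3A did. Downward, RB1CC1, a subunit of the ULK1 complex, fell with gemcitabine (-0.85 ± 0.25), genistein (-1.01 ± 0.26) and both drugs (-1.29 ± 0.27) in MiaPaCa2. FNIP1 fell with gemcitabine (-0.78 ± 0.14) and both drugs (-1.04 ± 0.15) there, and CTSK with genistein (-0.64 ± 0.19). In PANC1 SLC17A5 (-0.61 ± 0.12) and GM2A (-0.49 ± 0.11) fell with gemcitabine, and RPTOR, a subunit of mTORC1 (-0.82 ± 0.18), and ARSB (-0.54 ± 0.11) with both drugs. All these values are without the GC correction and with every library of the fit. Exon GC content was 63.5% in MAP1LC3A and 59.8% in SMPD1, which rose in MiaPaCa2, and 46.5% in LAMP3, which also rose. It was 37.8% in RB1CC1 and 40.2% in FNIP1, which fell there. The part of GC content in these changes was not tested.

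The GC content of the exons moved with many of these values, and the slopes of all 4 MiaPaCa2 libraries with gemcitabine lay above those of its controls. With the correction 6 members were called with gemcitabine in MiaPaCa2 (5 of the 11 above and LAMP2), 4 with genistein and 14 with both drugs (10 of the 17), and in PANC1 8, 5 and 11. Calls over all genes were 4536, 1769 and 6435 in MiaPaCa2, against 4747, 1335 and 6509 without the correction. In PANC1 they were 3086, 1227 and 5063, against 1272, 10 and 2897, so calls rose over all genes as well. The correction moved the all-gene median to -0.07, 0.02 and -0.10 in MiaPaCa2 and to -0.05, 0.01 and -0.07 in PANC1. Members gained with it in PANC1 were TFE3, GUSB and ULK1 upward and CTSL and WIPI1 downward with gemcitabine, NPC1, GAA, NEU1 and SQSTM1 upward and TFEB downward with genistein, and MITF, MCOLN1, GAA and ULK1 upward and ATP6V1H, ATG7 and ATG16L1 downward with both drugs. In MiaPaCa2 those with both drugs were LAMP2, ATP6V1A and ATP6V1B2 upward and UVRAG downward. Calls that held in all 11 alternative settings were those of NEU1, GLA and GABARAPL1 with gemcitabine, of SQSTM1 and GABARAPL2 with genistein, and of NEU1, GLA, GUSB, NPC2, MAP1LC3B, GABARAPL1, GABARAPL2, ULK1 and WIPI1 with both drugs in MiaPaCa2, and of NEU1 with both drugs in PANC1. With gemcitabine or both drugs in MiaPaCa2, ULK1, GAA, TFEB and MCOLN1, with 59.9% to 64% GC, had lower values with the correction, and LAMP2 and MITF, with 36% and 40.6%, had higher ones.

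**Figure D5:**
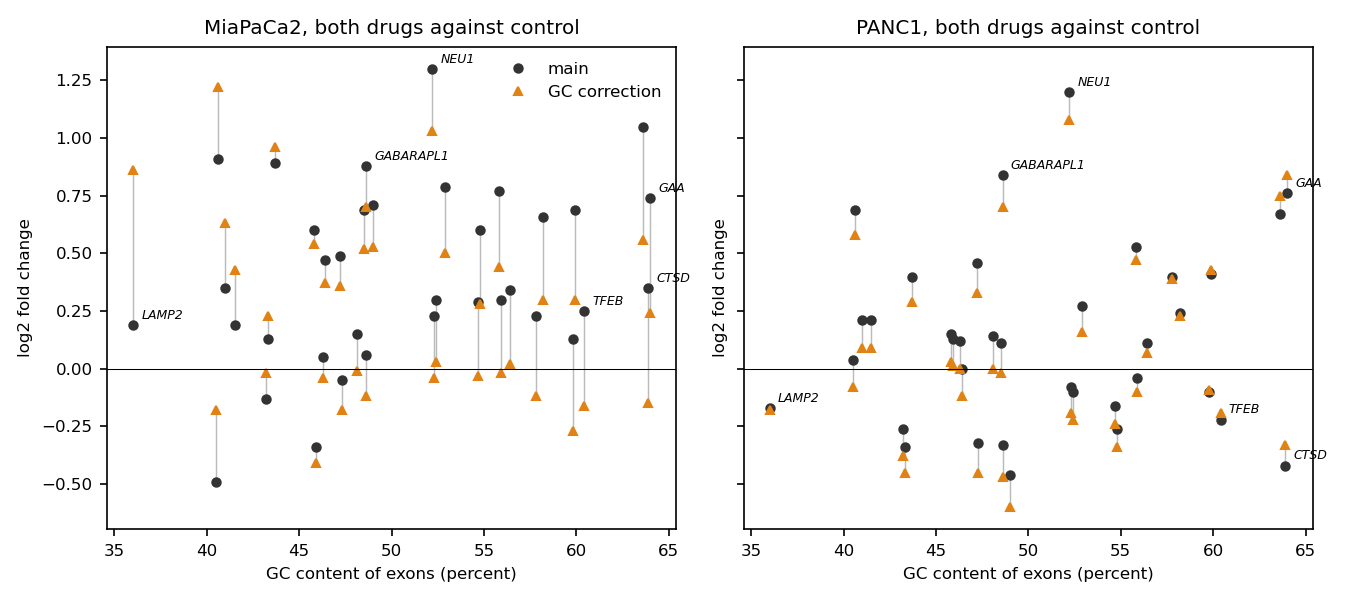
Log2 fold change with both drugs against the GC content of each member's exons (percent), in MiaPaCa2 (left) and PANC1 (right), with black points for the values reported and orange triangles for those with the GC correction, joined by a grey line for each gene. In MiaPaCa2 most members of high GC drop with the correction and LAMP2 climbs from 0.19 to 0.86, and NEU1 has the highest reported value in both panels.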

How the data were processed

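Poly-A RNA of 16 libraries, 2 in each of 8 groups, had been sequenced as single reads. The authors mapped them to GRCh37 with TopHat 2.0.4, removed reads with multiple alignments with Picard 1.29 and counted reads per gene with HTSeq 0.6.1, and these counts were deposited without normalization. The deposited FPKM per gene and per isoform were made by the authors with Cufflinks 2.1.1. The annotation release and strand setting are not given in the sources used here. In the present work counts were scaled by TMM (edgeR 4.0.16) after filterByExpr and fitted by voom in limma 3.58.1 (R 4.3.3). The 8 libraries of a line shared a model, and all 16 entered comparisons between the lines. Benjamini-Hochberg adjustment ran over all genes. A call needed adjusted p ≤ 0.05, a log2 fold change of 0.4 or more in size and over 1 FPKM on average in the treated group (either line for untreated lines), and a difference of changes needed the adjusted p alone. Members and lists were chosen with earlier results of these data known. Per-library levels were printed for TFEB, TFE3 and MITF, members called alike in both lines and up to 4 called members of largest change per comparison, and for others to show a role, and from the wider list the 2 largest rises and 2 largest falls per drug, of which 1 gene is not reported here. GC content came from GENCODE v44 lifted to GRCh37, and the correction removed a loess trend (span 0.3) from each library. Other settings were edgeR, DESeq2 1.42.0, its size factors, library size alone, no filter, limma-trend on log2(FPKM + 1), the 4 libraries compared, a replicate block, adjusted p alone, CPM for levels and each library left out. Scripts were tested on simulated data. Figures were drawn with matplotlib.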

Additional observations from a re-analysis of the deposited data

Results flagged for a closer look

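The changes of some members differed between the lines by the test of the difference itself (PANC1 minus MiaPaCa2, adjusted p over all genes). With gemcitabine these log2 differences were -0.82 for CTSB, -0.63 for CTSL, -0.65 for GABARAPL2, -0.77 for WIPI1 and -0.53 for PSAP. With both drugs they were -1.25 for WIPI1, -0.94 for CTSB, -0.66 for NPC2, -0.60 for MAP1LC3B, -0.57 for GLA, -0.55 for CTSL, -0.55 for ATP6V1H, -0.53 for PSAP, -0.53 for GABARAPL2, -0.49 for CTSZ and -0.43 for CTSA. All 16 values were negative, and with the GC correction TFE3 (0.50 and 0.49 for the 2 treatments), UVRAG and ATP6V0D1 (0.46 and 0.25 with gemcitabine) and GAA (0.55 with both drugs) also differed, upward. Those of CTSB and CTSL for either treatment, GABARAPL2 and PSAP with gemcitabine and WIPI1 with both drugs passed in all 9 alternative settings, and that of CTSA passed in 4 of 9. These settings do not include a left-out library. The PSAP difference with gemcitabine was lost without either MiaPaCa2 gemcitabine library, either MiaPaCa2 control or PANC1 gemcitabine 2, at values from -0.57 to -0.48. That of WIPI1 with gemcitabine was lost without MiaPaCa2 gemcitabine 2, MiaPaCa2 control 2 or PANC1 gemcitabine 2, at -0.69 to -0.67. With both drugs those of NPC2, MAP1LC3B, GLA, ATP6V1H, PSAP, GABARAPL2, CTSZ and CTSA were each lost without at least 1 library. With the GC correction CTSA had -0.10 (adjusted p = 0.427) and MAP1LC3B -0.38 (adjusted p = 0.121) with both drugs. The PANC1 controls differed in their GC slopes (0.29 and -0.07), and the part of this in the differences was not tested beyond the correction. Groups of 2 libraries are too small for a test of outlying libraries.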

How the results depend on the processing

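Of 100 called values over 16 comparisons, 45 kept their direction and call in every setting other than a left-out library, 55 lost the call in at least 1 and 27 lost it with the GC correction. Of 476 values not called, 83 gained a call in at least 1. The direction turned with the GC correction, with or without the replicate block, for CTSD with gemcitabine added to genistein in MiaPaCa2 (-0.08) and for GAA with genistein in PANC1 (0.48) and in the difference between lines with both drugs (0.55), and with the correction alone for ATP6V0D1 in the difference with gemcitabine (0.25). The causes were not tested. By CPM in place of FPKM the median log2 ratio of the members was 0.22 (gemcitabine), 0.20 (genistein) and 0.37 (both) in MiaPaCa2 and -0.04, 0.11 and 0.05 in PANC1, against 0.33, 0.14, 0.44, 0.19, 0.17 and 0.35 by FPKM.

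Counts of members called moved by over 1.5 times as follows. In MiaPaCa2 gemcitabine gave 6 with the GC correction, with or without the block. Genistein gave 3 by library size alone, 2 by limma-trend and 8 by adjusted p alone. Genistein added to gemcitabine gave 1 by DESeq2, 1 by library size alone, 0 by limma-trend and 6 by adjusted p alone. In PANC1 gemcitabine gave 5 by library size alone, 0 with the 4 libraries alone, 1 with the replicate block, 8 with the GC correction with or without the block and 5 by adjusted p alone. Genistein gave 3 by DESeq2, 1 by library size alone, 1 with no filter, 2 with the 4 libraries alone, 5 with the GC correction and 4 with correction and block. Both drugs gave 11 by library size alone, 1 with the 4 libraries alone, 11 with the GC correction and 10 with correction and block. Genistein added to gemcitabine gave 1 by DESeq2 and 2 with the GC correction, with or without the block. Gemcitabine added to genistein gave 8 by edgeR, 9 by DESeq2, 8 by library size alone, 3 with no filter, 8 by limma-trend, 3 with the 4 libraries alone, 0 with the replicate block and 8 with the GC correction, with or without the block. Between the lines, gemcitabine gave 9 with the GC correction and 8 with correction and block. Genistein gave 1 by DESeq2, 2 with the GC correction and 1 with correction and block, and both drugs 6 by library size alone and 4 by limma-trend. The PANC1 interaction gave 1 with the GC correction.

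Leaving out 1 library gave 7 to 10 members with gemcitabine in MiaPaCa2, 1 to 5 with genistein, 15 to 20 with both drugs, 0 to 5 for genistein added and 8 to 13 for gemcitabine added. In PANC1 it gave 0 to 5 with gemcitabine, 0 with genistein, 4 to 7 with both drugs, 0 for genistein added and 0 to 3 for gemcitabine added. It gave 21 to 26 between untreated lines, 3 to 17, 0 and 5 to 20 for the differences with gemcitabine, genistein and both drugs, and 0 for both interactions.

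Same-numbered libraries did not deviate together (correlations from -0.299 to 0.155 in MiaPaCa2 and from -0.569 to 0.331 in PANC1, over 6 pairs each), so the numbers were not taken as pairs. Fitting the replicate number as a replicate block gave 10, 4, 17, 2 and 12 in MiaPaCa2 and 1, 0, 4, 0 and 0 members in PANC1 in the order above, 23 between untreated lines, and 5, 0 and 10 for the differences. TFEB and MITF rested on 30 to 276 counts per library, which limits their precision.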
